A study of Mus musculus with 22 samples.

Results

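The 32 genes described here cover glycolysis and the response to low oxygen. They comprise 3 glucose and lactate transporters, 9 genes of upper glycolysis, 5 of lower glycolysis, 2 that set the fate of pyruvate, the oxygen-regulated transcription factor subunit Hif1a with 2 oxygen sensors, and 10 further targets of the hypoxia response. They were listed by name for these roles, with earlier results of these data known, and all 32 were found among the 52636 genes of the count table. They lie on 15 chromosomes, with at most 5 on any 1 of them. The question was whether a hypoxia response goes with the MCL-like tumours.

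In normoxia, prolyl hydroxylases encoded by the Egln genes mark the HIF alpha subunits for degradation. When oxygen falls, HIF accumulates, pairs with its partner Arnt and binds short DNA elements at genes for glucose uptake, glycolysis, mitochondrial removal and vessel growth. Growing B cells and B cell lymphomas also use glycolysis when oxygen is ample, and Myc drives several of the same enzyme genes, so high levels of glycolysis genes are not specific to low oxygen.

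The study profiled mouse lymphomas by sequencing the 3' ends of messenger RNA in 22 libraries from 15 mice of mixed 129/C57Bl6 background. The 4 MCL-like primary tumours, with a surface phenotype like mantle cell lymphoma (MCL), were from R26-Ccnd2tg/tg;p53fl/fl;Mb1Cretg/+ mice, which carry a cyclin D2 transgene at Rosa26; replicate 1 was a mesenteric lymphoma and the other 3 were in spleen. They were set against 9 non-MCL mice, namely 3 of that same genotype (Ccnd2 non-MCL, 1 mediastinal and 2 in spleen) and 6 of genotype p53fl/fl;Mb1Cretg/+ (p53-only; spleen in replicates 1 to 3, and mediastinal, unspecified lymphoma or thymoma in replicates 4 to 7). All groups, the non-MCL ones included, thus carry floxed p53 with Cre driven from Mb1 (Cd79a), a gene switched on early in the B lineage, and p53-only replicates 2 and 5 were tumours of 1 mouse, which were summed. There were also 6 MCL-like transplants of tumours from 4 mice and 2 Ccnd2 non-MCL transplants from 1 mouse, all grown in NSG hosts, which lack their own B, T and NK cells but keep red and myeloid cells. For the 6 MCL-like transplants the sample titles read non-MCL while the immunophenotype field reads MCL-like, and they were grouped by that field. Ages were not given in the sources used here.

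Library totals ran from 2693399 to 8146613 counts, and no pair of libraries agreed within counting noise (smallest chi-square per degree of freedom 5.36 over 231 pairs). Levels are given per mouse as CPM, a gene's counts scaled to a common library total. B cell markers were present in every group, with summed levels of 3449 to 7067 CPM in MCL-like and 1465 to 6469 CPM in non-MCL primaries, and none of the 8 was at 0 in any group. Erythroid markers (9 genes) summed to 23400 to 111200 CPM in MCL-like and 89.0 to 38650 CPM in non-MCL primaries, none at 0 in either group. Genes of proliferating cells (20 genes) summed to 3045 to 3764 CPM in MCL-like and 4517 to 6136 CPM in non-MCL primaries, with no overlap. Their part in the results that follow was not tested.

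**Figure D1:**
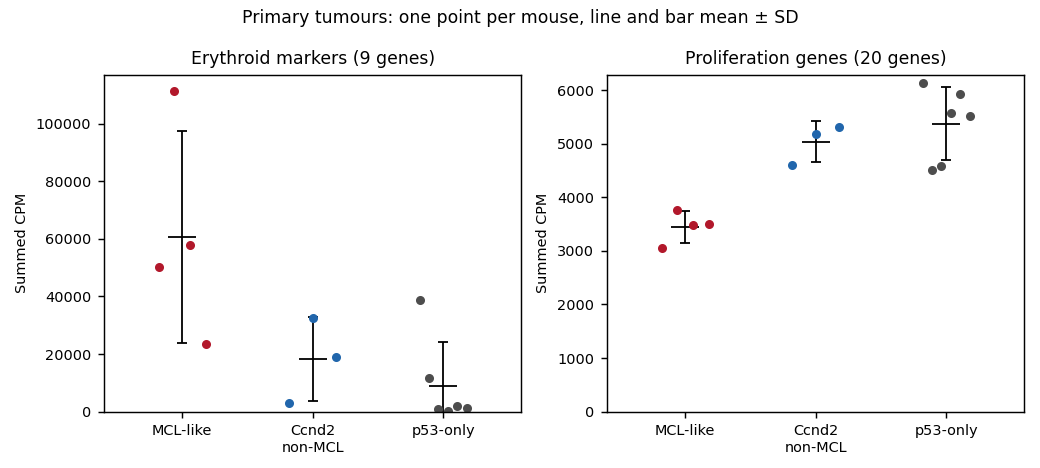
Summed CPM (linear axes) of erythroid markers and of proliferation genes in primary tumours, with 1 point per mouse and mean ± SD; bars that reach below 0 are cut there. In the proliferation panel the MCL-like mice, at 3045 to 3764 CPM, all lie below the non-MCL mice, while in the erythroid panel the groups overlap.

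The DNA element that HIF binds has the core ACGTG or GCGTG, read on either strand. RefSeq promoters of GRCm38.p6, from 250 bases before to 50 bases after the first listed start, were available for 29 of the 32 genes. A core occurred in 23 of those 29 (79.3%), against 43.8% of all 27025 promoters, and median GC content was 65.0% against 52.7% in all promoters. A match of letters is a description and does not show that HIF binds there. Pkm, Vegfa, Hk1, Aldoa, Gpi1 and Tpi1 had no core in this window. The promoters of 4 genes on which the comparisons turn are printed 5′ to 3′ with the cores in capitals. Bnip3 is the single member that passed the test, Ldha and Slc2a1 had fitted fold changes of opposite sign, neither of them called, and Adm, not one of the 32, is a further hypoxia target that rose. Overlapping cores are merged, which leaves 4 stretches in Bnip3 (chr7:138909457-138909756, minus strand), 5 in Ldha (chr7:46845554-46845853, plus strand), 2 in Slc2a1 (chr4:119108495-119108794, plus strand) and 2 in Adm (chr7:110627407-110627706, plus strand).
Bnip3: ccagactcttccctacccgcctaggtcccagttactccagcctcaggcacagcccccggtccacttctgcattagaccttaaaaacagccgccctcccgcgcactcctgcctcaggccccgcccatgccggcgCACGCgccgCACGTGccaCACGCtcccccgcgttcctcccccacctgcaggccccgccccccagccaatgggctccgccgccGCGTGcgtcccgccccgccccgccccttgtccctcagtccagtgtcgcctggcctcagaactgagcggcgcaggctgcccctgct
Ldha: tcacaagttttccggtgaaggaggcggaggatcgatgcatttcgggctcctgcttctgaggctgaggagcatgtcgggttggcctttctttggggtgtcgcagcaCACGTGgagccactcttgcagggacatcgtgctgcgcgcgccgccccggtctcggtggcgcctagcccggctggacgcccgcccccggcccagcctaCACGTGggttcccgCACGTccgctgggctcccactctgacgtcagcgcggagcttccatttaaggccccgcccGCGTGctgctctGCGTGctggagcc
Slc2a1: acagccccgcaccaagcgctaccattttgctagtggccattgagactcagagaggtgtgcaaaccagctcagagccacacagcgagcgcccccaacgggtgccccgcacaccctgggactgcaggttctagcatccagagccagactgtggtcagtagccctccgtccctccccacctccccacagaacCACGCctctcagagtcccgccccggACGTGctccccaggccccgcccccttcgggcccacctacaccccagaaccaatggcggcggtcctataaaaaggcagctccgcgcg
Adm: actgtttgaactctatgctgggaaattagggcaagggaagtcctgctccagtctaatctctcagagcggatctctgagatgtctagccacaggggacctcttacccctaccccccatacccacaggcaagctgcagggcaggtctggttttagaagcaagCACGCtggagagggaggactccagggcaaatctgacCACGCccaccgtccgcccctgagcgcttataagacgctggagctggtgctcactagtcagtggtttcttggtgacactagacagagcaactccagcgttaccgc

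None of the 32 glycolysis and hypoxia genes was shown to rise in MCL-like primaries. Of the 30 members with enough counts to test, none rose against all non-MCL primaries and 1, Bnip3, fell (edgeR quasi-likelihood test, adjusted p under 0.05). Over all 12967 genes tested in that comparison, 2.84% rose and 2.68% fell, so 1 call among 30 is near the background. Fitted log2 fold changes were positive for 8 members and negative for 22, with a median of -0.66, beside -0.127 over all genes. At an unadjusted p under 0.05 there were 11 members and 3307 of all genes. DESeq2 called 7 members lower and none higher, where it called 7.89% of all genes lower. Of the 30 tested, Bnip3, Egln3 and Pgk1 passed the low-count filter only through the non-MCL mice, so the counts and the median above are a description only. Pgam1 and P4ha2 were too sparse to test, at 7 counts each over the 4 MCL-like mice. In whole-tumour RNA, a smaller share of cells that express a gene cannot be told apart from less RNA per cell.

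**Figure D2:**
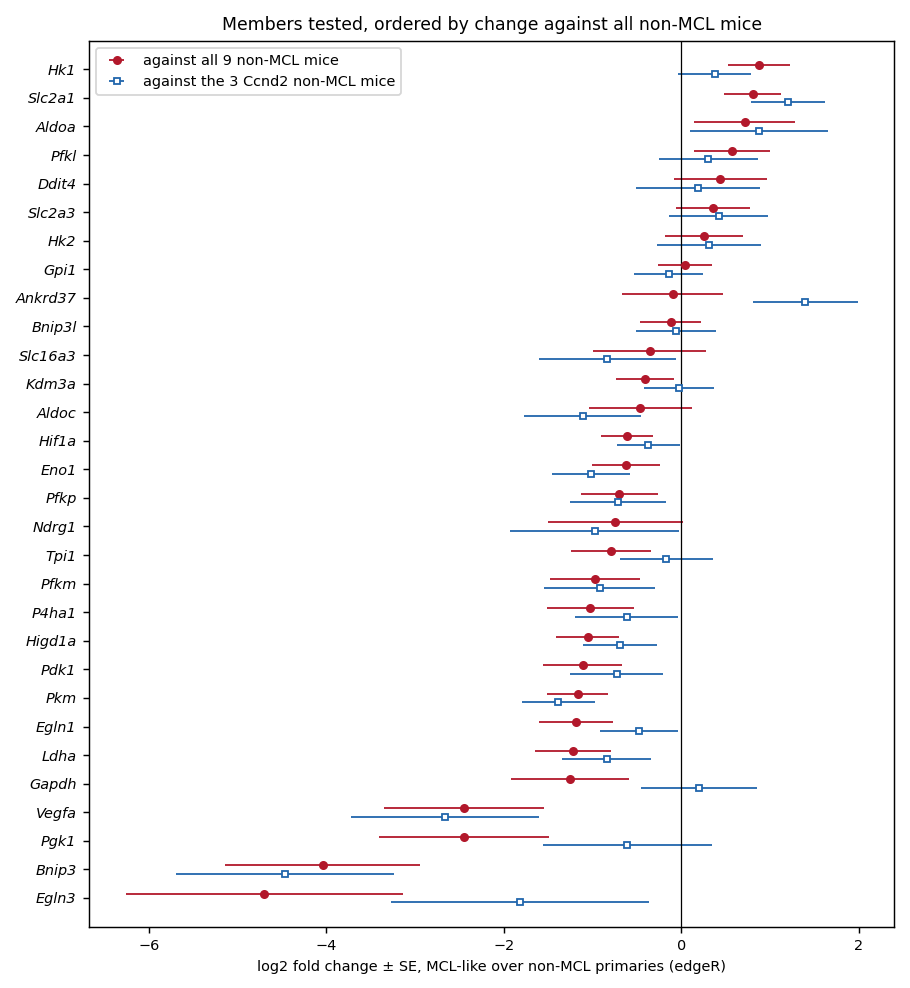
Fitted log2 fold change ± SE (edgeR) for each of the 30 members tested, MCL-like over all 9 non-MCL mice (filled circles) and over the 3 Ccnd2 non-MCL mice (open squares), which share the MCL-like samples. Against all non-MCL mice 22 of 30 points lie left of 0, and Bnip3, at -4.04, is the single member called. Bnip3, Egln3 and Pgk1 passed the low-count filter only through the non-MCL mice.

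The glucose and lactate transporters gave no call. Slc2a1 encodes GLUT1, the main basal glucose transporter. It was at 18.7, 11.8, 19.6 and 44.3 CPM in MCL-like replicates 1 to 4, against 10.02, 11.7 and 10.6 CPM in Ccnd2 non-MCL replicates 1 to 3 and a range of 11.4 to 22.2 CPM (median 14.8) in p53-only mice. All 4 MCL-like mice were above the Ccnd2 non-MCL mice, narrowly so in replicate 2, while they overlapped the p53-only mice. The fitted log2 fold change was 0.81 (SE 0.32, adjusted p = 0.137) against all non-MCL mice and 1.21 (SE 0.42, adjusted p = 0.165) against the Ccnd2 non-MCL mice, so neither difference passed the test. Slc2a3, a high-affinity glucose transporter, was at 66.0 CPM in MCL-like replicate 1 and 16.5 to 28.2 CPM in the other 3 MCL-like mice, against 9.89 to 41.2 CPM in non-MCL mice. Slc16a3, the monocarboxylate transporter that exports lactate, was at 2.32 to 9.81 CPM in MCL-like and 2.14 to 22.8 CPM in non-MCL mice.

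The 9 genes of upper glycolysis were split, with 5 positive and 4 negative fold changes against all non-MCL mice and a median of 0.0466. Hk1, a hexokinase that commits glucose to the cell, was at 59.8, 63.7, 86.4 and 112.6 CPM in MCL-like mice, against 27.5, 79.1 and 94.6 CPM in Ccnd2 non-MCL mice and 17.6 to 51.0 CPM (median 36.0) in p53-only mice. Its MCL-like values lay above the p53-only mice and within or above those of the Ccnd2 non-MCL mice (log2 fold change against all non-MCL 0.88, SE 0.35, adjusted p = 0.138). MCL-like and p53-only mice also differ in genotype, and the share of all genes that separate between them was not computed. Aldoa, the main aldolase, was at 136, 408, 215 and 188 CPM in MCL-like mice, against a range of 30.6 to 384 CPM (median 153) in non-MCL mice. The groups overlapped widely, and the change of 0.71 had an SE of 0.57 and an adjusted p of 0.444. Among the 3 phosphofructokinase genes, which encode isozymes of the committed step, Pfkl had a fold change of 0.57 (SE 0.43), Pfkm of -0.97 (SE 0.51) and Pfkp of -0.70 (SE 0.43) on the log2 scale, none of them called. Pfkm was at 3.48 to 5.10 CPM in MCL-like mice, below the 5.94, 11.4 and 10.8 CPM of the Ccnd2 non-MCL mice, but p53-only replicate 7 was lower still at 1.36 CPM. Hk2, Gpi1, Aldoc and Tpi1 overlapped between MCL-like and non-MCL mice, with fitted log2 fold changes of 0.25, 0.05, -0.46 and -0.79 and SEs of 0.44, 0.31, 0.58 and 0.46.

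Against all non-MCL mice the genes of lower glycolysis had negative fold changes, 4 of the 4 tested. Against the Ccnd2 non-MCL mice 3 were negative and 1, Gapdh, was positive. Pkm encodes the pyruvate kinase that makes pyruvate and ATP in the last step. It was at 173.7, 164.6, 149.1 and 146.4 CPM in MCL-like replicates 1 to 4, against 724.7, 394.2 and 228.6 CPM in Ccnd2 non-MCL replicates 1 to 3 and 234 to 476 CPM (median 342.7) in p53-only mice. Pkm was the 1 member of 32 whose MCL-like values lay wholly below those of all 9 non-MCL mice, and no member lay wholly above. Over all genes tested, MCL-like values lay wholly below in 2.79% and wholly above in 1.82%, so 1 of 32 is near the background. Its level was 158 ± 12.9 CPM in MCL-like (SD, n = 4) and 380.5 ± 157 CPM in non-MCL mice (SD, n = 9). The log2 fold change of -1.17 (SE 0.34) narrowly missed the threshold, with an adjusted p of 0.0584 over all genes. Some non-MCL tumours have names that begin oTP and not TP, and without these it was -1.45 with an adjusted p of 0.0416, where 0.553% of all genes fell. Pkm passed in 4 of the 25 alternatives, with adjusted p from 0.0183 to 0.19 over them. Among single spleen libraries Pkm was at 146.4 to 164.6 CPM in MCL-like and 228.6 to 475.9 CPM in non-MCL tumours.

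Eno1, an enolase, was at 25.6, 52.3, 37.0 and 77.1 CPM in MCL-like mice, against 33.9 to 162 CPM (median 59.05) in non-MCL mice (log2 fold change -0.62, SE 0.38, adjusted p = 0.319). Gapdh and Pgk1, which encode successive enzymes of the ATP-yielding phase, have many near-identical copies in the mouse genome, so their levels are uncertain. The part of these copies was not tested. Pgk1 also had few counts, 18 over the 4 MCL-like mice, where Gapdh had 278. Gapdh was at 10.4 to 27.2 CPM in MCL-like and 1.80 to 109.5 CPM (median 38.6) in non-MCL mice. Pgk1 was at 1.19, 0.633, 2.53 and 0.806 CPM in MCL-like and 0.300 to 21.2 CPM (median 4.03) in non-MCL mice. Both had higher medians in the oTP libraries than in the other non-MCL libraries, but the ranges overlapped. Pgk1 ran from 2.455 to 21.15 CPM in oTP and 0.300 to 4.03 CPM in TP libraries, and Gapdh from 21.6 to 109.5 and 1.80 to 38.6 CPM. Of the 5 oTP libraries 4 were not from spleen, so site differed with the naming. The mix of the 2 non-MCL genotypes differed with it too, and the parts of site and genotype were not tested. Pgk1 had a median of 13.6 CPM in the 5 oTP libraries and 2.64 CPM in the 5 non-MCL libraries named TP, and Gapdh had 68.1 and 27.5 CPM in the oTP and TP libraries. In the mouse with a pair of libraries, which also differed in site (oTP from a lymphoma, TP from spleen), Pgk1 was at 13.6 CPM in the oTP library and 2.64 CPM in the TP library, and Gapdh at 106.6 and 31.0 CPM in these. The labels do not say what oTP stands for. The log2 fold change of MCL-like over non-MCL mice was -2.45 for Pgk1 (SE 0.96, adjusted p = 0.128) and -1.25 for Gapdh (SE 0.66, adjusted p = 0.251), and without the oTP tumours it was -0.81 for Pgk1 and -0.41 for Gapdh. Over the Ccnd2 non-MCL mice alone it was -0.61 for Pgk1 (SE 0.95, adjusted p = 0.795) and 0.20 for Gapdh (SE 0.66, adjusted p = 0.91).

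Both genes that set the fate of pyruvate had negative fold changes. Ldha encodes the lactate dehydrogenase subunit that turns pyruvate into lactate, and its promoter holds 5 of the HIF core stretches printed above. It was at 110, 207.8, 151 and 140.8 CPM in MCL-like replicates 1 to 4, against 362, 77.0 and 462 CPM in Ccnd2 non-MCL replicates 1 to 3 and 276 to 716 CPM (median 373) in p53-only mice. MCL-like values were thus below all 6 p53-only mice, but Ccnd2 non-MCL replicate 2 was lower than any MCL-like mouse. The share of all genes that lie below the p53-only mice in this way was not computed. The log2 fold change against all non-MCL mice was -1.22 (SE 0.43, adjusted p = 0.0971). It passed in 2 of the 25 alternatives, DESeq2 and without Ccnd2 non-MCL replicate 2, and adjusted p ran from 0.0278 to 0.394 over them. Pdk1, a kinase that keeps pyruvate out of the mitochondrion by inhibiting pyruvate dehydrogenase, was at 25.3, 33.3, 14.2 and 39.5 CPM in MCL-like mice, against 21.0 to 114 CPM (median 55.15) in non-MCL mice. Its groups overlapped, and the fold change of -1.11 (SE 0.44) had an adjusted p of 0.134.

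Hif1a and both oxygen sensors had negative fold changes, none of them called. Hif1a, whose product is controlled mostly at the protein level, was at 19.6, 43.7, 37.0 and 26.9 CPM in MCL-like mice, against 30.3 to 89.4 CPM (median 52.2) in non-MCL mice (log2 fold change -0.61, SE 0.29, adjusted p = 0.205). Egln1, the main prolyl hydroxylase, was at 24.4, 12.45, 21.8 and 14.8 CPM in MCL-like mice, against 36.8, 21.0 and 27.3 CPM in Ccnd2 non-MCL mice and 26.1 to 90.6 CPM (median 48.85) in p53-only mice. MCL-like mice lay below all p53-only mice, for which no share over all genes was computed, and overlapped the Ccnd2 non-MCL mice (log2 fold change against all non-MCL -1.18, SE 0.42, adjusted p = 0.098). Egln3, a prolyl hydroxylase that HIF itself induces, was near 0 in MCL-like tumours, with 0, 3, 1 and 1 counts in the 4 mice. Non-MCL mice held 0.300 to 55.9 CPM (median 2.33), and the highest value, in p53-only replicates 2 and 5, made up 503 of the 623 counts. The fitted fold change of -4.70 (SE 1.56, adjusted p = 0.0833) rests on those few counts and was not called.

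Bnip3 was the single member called, and it passed the low-count filter only through the non-MCL mice in which it is high. It encodes a mitochondrial protein that drives removal of mitochondria in low oxygen and is a well-known HIF target. It was at 2.68, 1.055, 0.317 and 0.269 CPM in MCL-like replicates 1 to 4, from 9, 5, 1 and 1 counts. In Ccnd2 non-MCL replicates 1 to 3 it was at 71.3, 2.10 and 8.35 CPM, and in p53-only mice at 2.88 to 43.95 CPM (median 14.04). MCL-like replicates 2 to 4 were below every non-MCL mouse, and replicate 1 was above Ccnd2 non-MCL replicate 2. The log2 fold change was -4.04 (SE 1.10, adjusted p = 0.0455). The call was close to the threshold and was lost, with adjusted p between 0.0527 and 0.136, when any of these mice was left out: each MCL-like replicate, Ccnd2 non-MCL replicates 1 or 3, or p53-only replicates 2 and 5, 4, 6 or 7. The fold change stayed between -5.02 and -3.50 in all 25 alternatives, with adjusted p from 0.000368 to 0.175. It was -4.095 without the oTP tumours (adjusted p = 0.131) and -3.83 in spleen tumours alone (adjusted p = 0.175).

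The other hypoxia targets gave no call. Vegfa, the growth factor for blood vessels, was at 7.73, 3.38, 5.38 and 9.94 CPM in MCL-like mice, against 66.8, 52.45 and 14.4 CPM in Ccnd2 non-MCL mice and 5.115 to 165.5 CPM (median 11.1) in p53-only mice. All MCL-like mice lay below the Ccnd2 non-MCL mice, and they overlapped the p53-only mice (log2 fold change against all non-MCL -2.45, SE 0.90, adjusted p = 0.109). Higd1a, a mitochondrial protein induced in low oxygen, was at 22.0, 36.1, 20.6 and 18.5 CPM in MCL-like mice, against 25.8 to 83.2 CPM (median 54.5) in non-MCL mice. In Higd1a 3 of the 4 MCL-like mice were below every non-MCL mouse, and the fold change of -1.06 (SE 0.36) had an adjusted p of 0.0869. Among non-MCL libraries Higd1a was at 54.5 to 92.97 CPM in oTP and 25.8 to 50.1 CPM in TP libraries, with no overlap, and without the oTP tumours the fold change was -0.48 (adjusted p = 0.495). Kdm3a was likewise higher, and Gpi1 lower, in each oTP library than in each non-MCL TP library. These 10 libraries came from 9 mice. The share of all genes that split by name in this way was not computed, so the split is not read as a trait of these members. P4ha1, a collagen prolyl hydroxylase, was at 2.85 to 14.9 CPM in MCL-like and 5.84 to 26.5 CPM in non-MCL mice. Ndrg1, a stress-response gene, was at 8.02 to 16.4 CPM in MCL-like and 1.40 to 82.1 CPM in non-MCL mice. Kdm3a, a histone demethylase that HIF induces, was at 14.6 to 42.2 CPM in MCL-like and 24.1 to 62.9 CPM in non-MCL mice. Bnip3l, a relative of Bnip3 that also removes mitochondria from maturing red cells, was at 35.2 to 103 CPM in MCL-like and 35.1 to 135 CPM in non-MCL mice. Ddit4, an inhibitor of mTOR signalling that many stresses induce, was at 357, 104, 141 and 144.5 CPM in MCL-like mice, against 50.6 to 356 CPM (median 112.6) in non-MCL mice, and was the 1 hypoxia target with a positive fold change (0.44, SE 0.53).

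**Figure D3:**
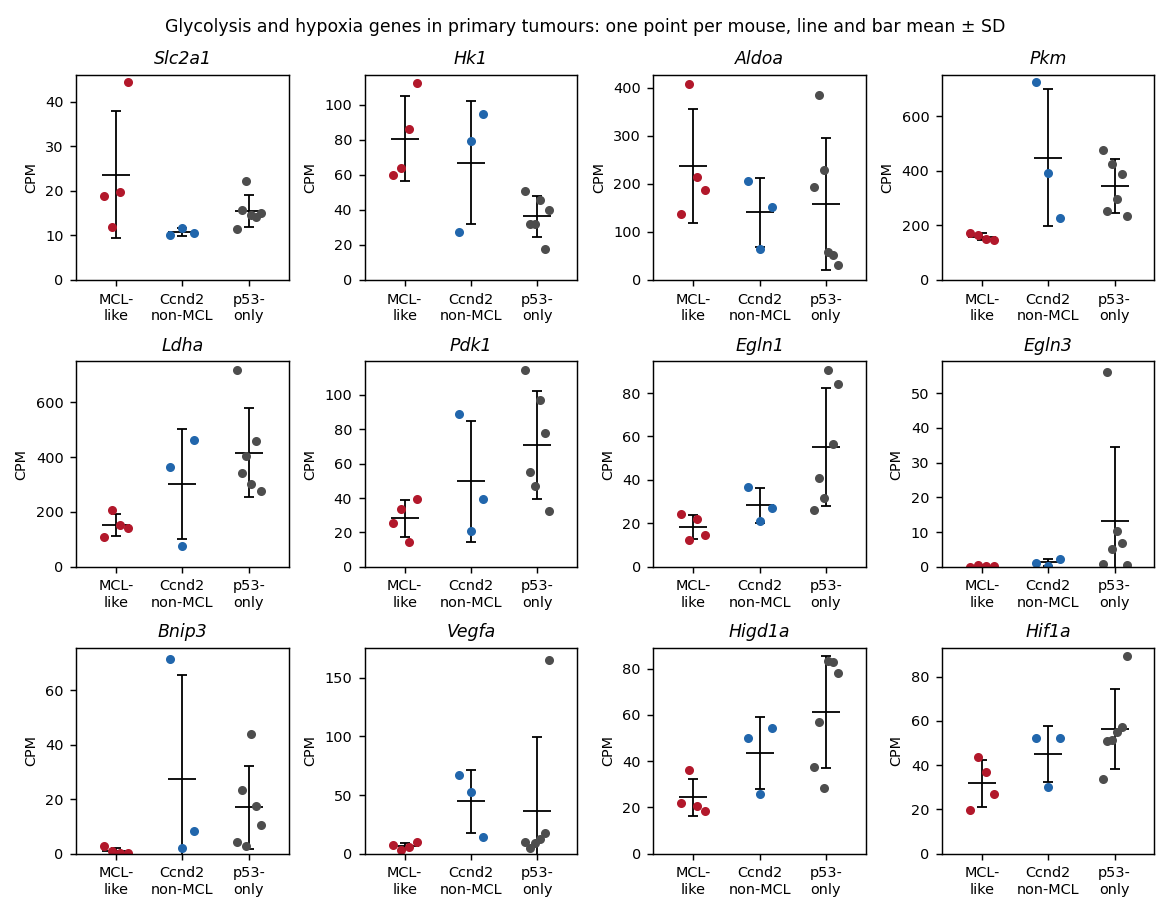
CPM (linear axes) of 12 members in primary tumours, with 1 point per mouse and mean ± SD; bars that reach below 0 are cut there. Pkm in MCL-like mice, at 146.4 to 173.7 CPM, is below every non-MCL mouse, Bnip3 and Egln3 are near 0 in MCL-like mice, and in Slc2a1 MCL-like replicate 4 stands highest at 44.3 CPM.

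Against the 3 Ccnd2 non-MCL mice alone, which share the transgene label, no member was called with edgeR. Over all 12967 genes 0.0617% rose and 0.247% fell in that comparison, so few calls were made at all. Fold changes were positive for 9 and negative for 21 of the 30 members, with a median of -0.541 beside -0.0446 over all genes. At an unadjusted p under 0.05 there were 6 members and 2175 of all 12967 genes. DESeq2 called 2 members lower in MCL-like mice, Bnip3 (log2 fold change -4.43, adjusted p = 0.00339) and Pkm (-1.35, adjusted p = 0.0403), and limma-voom called 0. DESeq2 called 4.2% of all genes lower in this comparison. Bnip3, Egln3 and Pgk1 passed the low-count filter only through the non-MCL mice. The member counts and median here, and the Bnip3 call, are thus a description only. Without the oTP tumours edgeR called Pkm (-1.69, adjusted p = 0.0269) and Vegfa (-3.08, adjusted p = 0.0147), where 2.51% of all genes fell. MCL-like values lay wholly above the Ccnd2 non-MCL values in 2 members, Slc2a1 and Ankrd37, and wholly below in 4, Pfkm, Pkm, Vegfa and Ndrg1. Over all genes tested 5.66% lay wholly above and 10.5% wholly below, so these members' shares are near the background. The log2 fold changes were -4.47 for Bnip3 (SE 1.23, adjusted p = 0.105), -1.39 for Pkm (SE 0.41, adjusted p = 0.12) and -2.67 for Vegfa (SE 1.06, adjusted p = 0.219). Vegfa passed in a fit of these 7 mice alone, at -2.63 with an adjusted p of 0.0383, where 1.93% of all genes fell.

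Ankrd37, a small HIF-induced gene of little-known function, differed in direction by the mice it was set against. It was at 7.73, 5.06, 11.4 and 5.64 CPM in MCL-like mice, against 2.60, 3.00 and 3.68 CPM in Ccnd2 non-MCL mice and 4.82 to 18.0 CPM (median 11.15) in p53-only mice. Ccnd2 non-MCL mice were thus lowest, with no overlap with either of the other groups. The log2 fold change of MCL-like over Ccnd2 non-MCL mice was 1.40 (SE 0.59, adjusted p = 0.243), and that over all non-MCL mice was -0.10 (SE 0.57), a sign kept in 14 of 25 alternatives.

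Among non-MCL primaries, the Ccnd2 and p53-only groups gave no call in any gene (0% of 12967 rose and 0% fell with edgeR). At an unadjusted p under 0.05 there were 1330 genes, 6 of them members, and DESeq2 called 75 genes higher and 40 lower in Ccnd2 non-MCL mice, with no member among them. Fold changes of Ccnd2 non-MCL over p53-only mice were positive for 12 members and negative for 18, with a median of -0.0932, beside -0.0431 over all genes. Ankrd37 had the lowest adjusted p, 0.339 at a log2 fold change of -1.90 (SE 0.57), and was the 1 member without overlap, lying wholly below. Over all genes tested 1.58% lay wholly below and 1.72% wholly above. The log2 fold changes were -1.85 for Gapdh (SE 0.66, adjusted p = 0.407), -3.40 for Egln3 (SE 1.35, adjusted p = 0.426) and 0.83 for Hk1 (SE 0.37, adjusted p = 0.468).

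Other genes of these pathways gave a few calls in both directions against all non-MCL mice, where 2.84% of all genes rose and 2.68% fell. Of 14 further regulators of the HIF pathway, 12 could be tested and none was called against all non-MCL mice. Of 35 further hypoxia targets, 30 could be tested, and 1 rose and 3 fell. Their log2 fold changes were positive for 6 and negative for 24, with a median of -0.653, beside -0.127 over all genes. Car12 among them passed the low-count filter only through the non-MCL mice, and not all the others were checked for this. These sign counts and the median are thus a description only. Adm, which encodes the vasodilator peptide adrenomedullin, was at 113, 149.6, 82.3 and 360.5 CPM in MCL-like mice, against 1.37 to 15.3 CPM (median 3.30) in non-MCL mice. Every MCL-like mouse was above every non-MCL mouse (log2 fold change 5.29, SE 0.54, adjusted p = 0.000695). Car12, a membrane carbonic anhydrase that handles acid from glycolysis, fell to 0.297 to 4.84 CPM in MCL-like mice, against 7.89 to 39.5 CPM in non-MCL mice (log2 fold change -3.51, SE 0.73, adjusted p = 0.016). Among MCL-like mice only replicate 4 reached the 2.69 CPM of the low-count filter. Car12 was thus tested only through the non-MCL mice in which it is high, and its call is a description only. Gbe1, the glycogen branching enzyme, fell to 2.74 to 11.6 CPM in MCL-like mice, against 12.45 to 108 CPM in non-MCL mice (log2 fold change -2.23, SE 0.57, adjusted p = 0.0369). Pgm1, a phosphoglucomutase that links glycogen to glycolysis, fell by 1.16 on the log2 scale (adjusted p = 0.043).

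**Figure D4:**
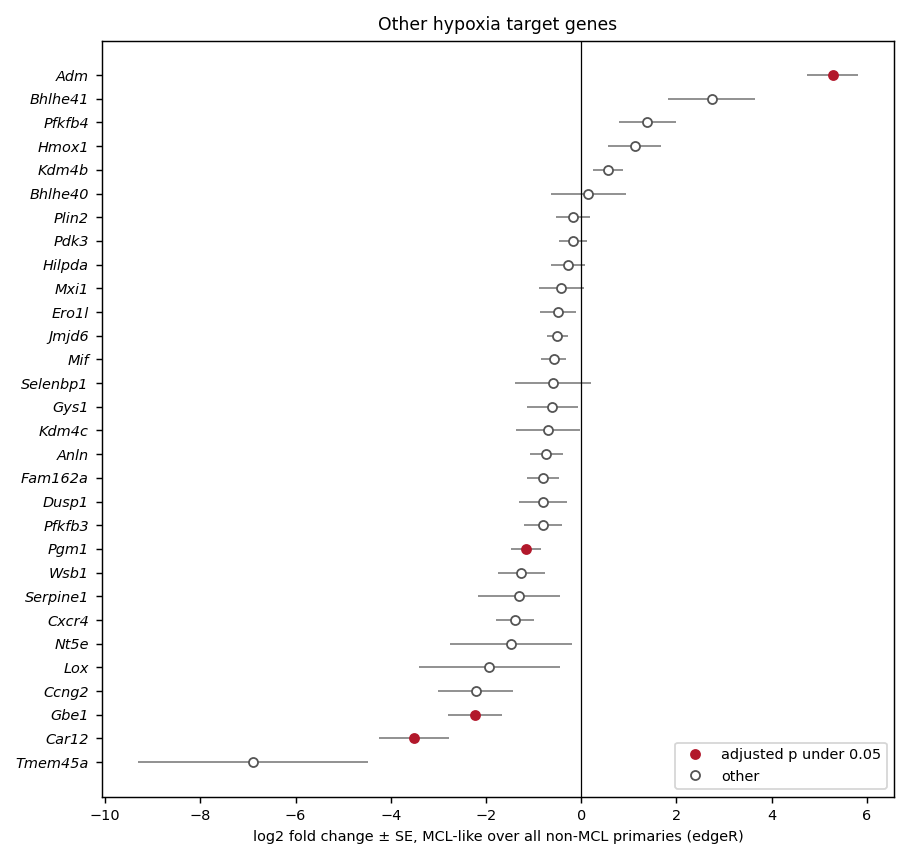
Fitted log2 fold change ± SE (edgeR), MCL-like over all 9 non-MCL primaries, for the 30 further hypoxia targets tested; filled points passed an adjusted p under 0.05. Adm stands apart at 5.29, and Pgm1, Gbe1 and Car12 are the 3 targets that fell. Car12 passed the low-count filter only through the non-MCL mice.

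Of 25 further glycolysis genes, 14 could be tested, and 1 rose and 2 fell. Fold changes were positive for 8 and negative for 6 of these, with a median of 0.111, beside -0.127 over all genes. Whether any passed the low-count filter through 1 side only was not checked, so these values are a description only. Bpgm, which makes the red cell metabolite that lowers oxygen affinity of haemoglobin, rose to 41.1 to 248.5 CPM in MCL-like mice, against 7.20 to 73.8 CPM in non-MCL mice (log2 fold change 1.88, SE 0.50, adjusted p = 0.0418). Erythroid markers summed highest in the same MCL-like mouse as Bpgm, replicate 2, at 111200 CPM, and the part of red cells in this rise was not tested. Slc16a1, a lactate and pyruvate transporter, fell to 38.1 to 84.1 CPM in MCL-like mice, against 69.4 to 366 CPM in non-MCL mice (log2 fold change -1.73, SE 0.46, adjusted p = 0.0417). Pgam5, a mitochondrial phosphatase that is not itself a glycolytic enzyme, fell by 1.39 (log2; SE 0.35, adjusted p = 0.0361). Of 12 genes for entry of pyruvate into mitochondria, 11 could be tested and 1 fell, Pdha1, a subunit of pyruvate dehydrogenase, by 1.14 (log2; SE 0.30, adjusted p = 0.0425). None of the 7 pentose phosphate genes was called. Of the 20 proliferation genes 3 fell, Birc5 by 1.52, Cenpa by 1.80 and Cdc20 by 0.95 on the log2 scale (adjusted p = 0.0285, 0.0383 and 0.0458), which are genes of cell division. Birc5, Cenpa and Pgam5 split by the oTP naming within the non-MCL mice. With only an oTP library, mice held 630.4 to 805.5 (Birc5), 564.2 to 739.0 (Cenpa) and 74.75 to 114.8 CPM (Pgam5). Other non-MCL mice held 285.9 to 378.0, 126.2 to 303.0 and 32.37 to 54.95 CPM. MCL-like mice, all named TP, held 123.6 to 209.9, 92.96 to 117.8 and 21.41 to 25.32 CPM, below both. The part of the naming was not tested, and no share over all genes was computed. Ms4a1, which encodes the B cell marker CD20, rose by a log2 change of 3.18 (SE 0.84, adjusted p = 0.0425), and no other B cell marker of 8 and no erythroid, neutrophil, macrophage, T cell or stromal marker was called.

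Transplantation allowed MCL-like tumours of the same mice to be compared between NSG hosts and the primary site. In 3 mice with both, no member was called, nor was any gene (0% of 12020 rose and 0% fell with edgeR; 656 had an unadjusted p under 0.05, 2 of them members, and DESeq2 called 6 genes higher and 26 lower in transplants, with no member among them). Of the 27 members tested, 14 had positive and 13 negative fold changes of transplant over primary, with a median of 0.0322, beside 0.00523 over all genes. Tpi1, an enzyme of upper glycolysis, was at 65.9, 156.5 and 100.9 CPM in the transplants, against 47.6, 109 and 53.2 CPM in the primaries of MCL-like replicates 1, 2 and 4 (log2 fold change 0.74, SE 0.30, adjusted p = 0.82). Aldoa was at 165, 586 and 361 CPM in the transplants, against 136, 408 and 188 CPM in these primaries (log2 fold change 0.68, SE 0.35, adjusted p = 0.82). Of the 27 tested, Tpi1, Aldoa, Gapdh, Pfkp and Higd1a were higher in the transplant in 3 of 3 mice, as were 12.4% of all genes tested. Slc2a1, Eno1, Pdk1, P4ha1 and Ankrd37 were lower in the transplant in 3 of 3, as were 16.5% of all genes, so both counts of 5 are near the background.

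Eno1 was at 20.9, 23.2 and 28.3 CPM in the transplants, against 25.6, 52.3 and 77.1 CPM in the primaries of MCL-like replicates 1, 2 and 4 (log2 fold change -0.87, SE 0.30, adjusted p = 0.82). Slc2a1 was at 11.0, 9.88 and 16.4 CPM in the transplants, against 18.7, 11.8 and 44.3 CPM in these primaries (log2 fold change -0.72, SE 0.35, adjusted p = 0.82). The higher Slc2a1 level of MCL-like replicate 4 was thus not seen in its transplants. Pkm was at 138.5, 286.8 and 261.2 CPM in the transplants, against 173.7, 164.6 and 146.4 CPM in these primaries (log2 fold change 0.55, SE 0.38, adjusted p = 0.834). In transplants of MCL-like replicates 2 and 4 Pkm thus lay within the 228.6 to 724.7 CPM of the non-MCL primaries. Bnip3 was at 0.180 to 2.10 CPM over the transplants of all 4 MCL-like mice, and Egln3 at 0.172 to 0.494 CPM. Erythroid markers summed to 71660 CPM in the transplants of MCL-like replicate 1 and to at most 1280 CPM in the transplants of the other 3 mice. Fitted fold changes of transplant over primary were negative for 9 of 9 erythroid, 8 of 8 T cell, 8 of 8 neutrophil, 9 of 9 macrophage and 7 of 7 stromal and endothelial markers tested, none of them called. T cell markers summed to 32.1 to 83.0 CPM in transplants and 76.1 to 302.6 CPM in primaries, and macrophage markers to 217 to 543.6 CPM in transplants and 589 to 1272 CPM in primaries. The part of these cells in the differences was not tested.

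**Figure D5:**
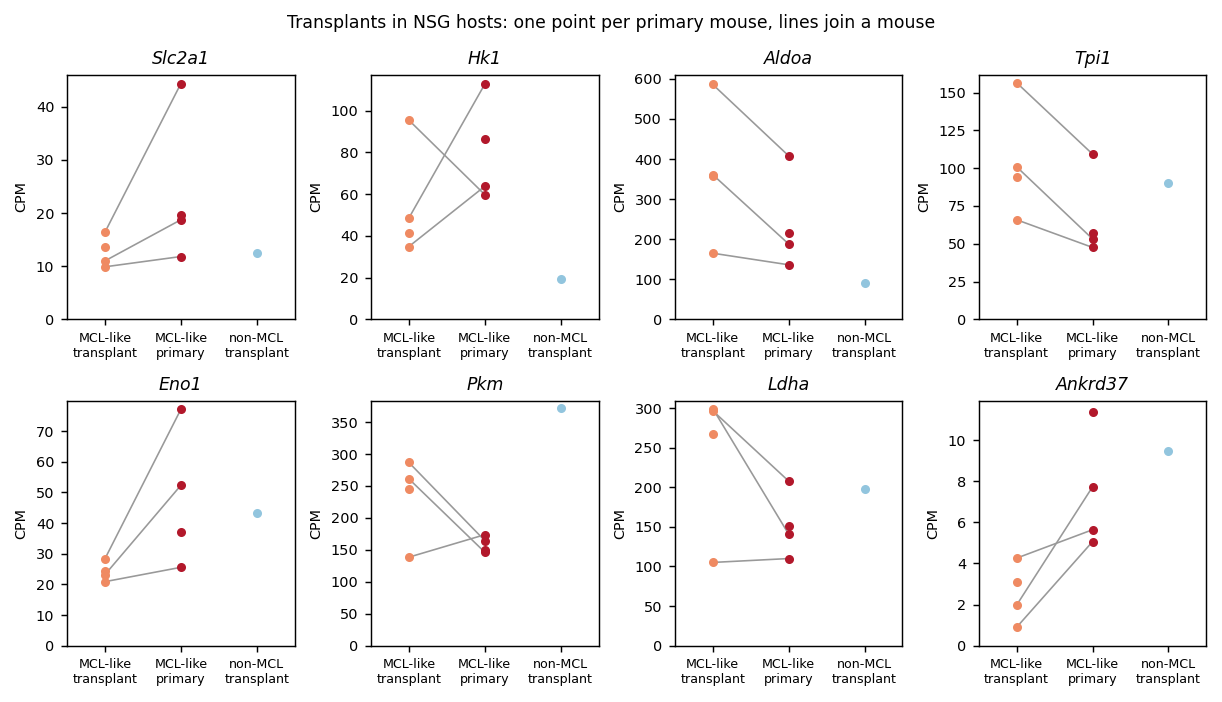
CPM (linear axes) of 8 members in MCL-like transplants (4 mice), MCL-like primaries (4 mice) and the Ccnd2 non-MCL transplants (1 mouse), with 1 point per mouse of origin and lines joining transplant and primary of the same mouse. Aldoa and Tpi1 are higher and Slc2a1, Eno1 and Ankrd37 lower in the transplant in each of the 3 joined mice.

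The Ccnd2 non-MCL transplants came from 1 mouse, so no test against the MCL-like transplants was made and values are given as a description. Bnip3 was at 0.180 to 2.10 CPM in MCL-like transplants of 4 mice and 18.2 CPM in the Ccnd2 non-MCL transplants. Egln3 was at 0.172 to 0.494 CPM in MCL-like transplants and 3.63 CPM in the Ccnd2 non-MCL transplants. Pkm was at 138.5 to 286.8 CPM in MCL-like transplants and 371.6 CPM in the Ccnd2 non-MCL transplants, while Ldha, at 105 to 299 CPM in MCL-like transplants and 197.5 CPM in the Ccnd2 non-MCL transplants, overlapped. Adm was at 24.0 to 228 CPM in MCL-like transplants and 0.389 CPM in the Ccnd2 non-MCL transplants. The Ccnd2 non-MCL transplants thus held more Bnip3, Egln3 and Pkm and less Adm than the MCL-like transplants of each mouse. Eno1, Ankrd37 and, narrowly, Aldoc were also higher there, while Hk1, Hk2, Pfkl, Aldoa, Egln1 and Ddit4 were lower. Hk1 was at 19.4 CPM, against 34.9 to 95.4 CPM in MCL-like transplants, and Aldoa at 91.0 CPM, against 165 to 586 CPM. The share of all genes outside the MCL-like range was not computed. Proliferation genes summed to 3492 to 3991 CPM in MCL-like and 6384 CPM in the Ccnd2 non-MCL transplants.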

How the data were processed

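RNA from lymphoma cells was made into 3' end libraries (QuantSeq reverse kit, per the labels' protocols), with FastQC, STAR and GRCm38 named in the submitters' processing notes. No source used here gives the counting tool, strand handling, annotation or versions. The deposited table holds the authors' raw counts per Ensembl gene, without normalization. Symbols came from GENCODE M21 (52403 of 52636 identifiers matched, ignoring versions). Aldoa is the identifier at the RefSeq position.

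Counts of libraries from 1 mouse and kind were summed. CPM levels are unscaled; fold changes come from TMM-scaled fits of edgeR 4.0.16 (R 4.3.3; quasi-likelihood, filterByExpr, Benjamini-Hochberg over all genes) and can differ from CPM ratios. Transplants and primaries were blocked by mouse, which the labels name (deviations of pairs correlated at 0.231, 0.243 and 0.359). limma 3.58.1 and DESeq2 1.42.0 were alternatives, and the tests were checked on simulated data. Members and lists were chosen with earlier results of these data known. Members with tests are those called and the lowest adjusted p (8 per comparison), and per other list up to 3 called genes; Pgm1, Pfkl, Pfkm, Pfkp, and the other members given with a fold change outside the 8 were named after their values were seen. The low-count filter used the 3 primary groups.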

Additional observations from a re-analysis of the deposited data

Results flagged for a closer look

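In 9 of the 88 sets of a member and a group of 4 or 6 mice, 1 mouse stood apart from the rest by a wide gap. The rule gives about 1 in 20 only for independent, normally distributed values. CPM values need not be so, the sets share mice, and no rate over all genes was computed. The count of 9 is therefore not read as an excess. The pooled transplants of MCL-like replicate 1 gave 3 of these, with Pfkm at 8.03 CPM (next highest 1.98 CPM), Pfkp at 16.8 CPM (next lowest 71.9 CPM) and Ldha at 105 CPM (next lowest 266.8 CPM). The same transplants held 71660 CPM of erythroid markers, against at most 1280 CPM in the others, and their part was not tested. Among MCL-like primaries, Tpi1 was at 109.3 CPM in replicate 2 (next 57.0 CPM) and Ddit4 at 357 CPM in replicate 1 (next 144.5 CPM). Among p53-only mice, replicate 4 stood apart in Aldoc at 8.79 CPM (next 4.89 CPM) and Ndrg1 at 82.1 CPM (next 21.8 CPM), the mouse of replicates 2 and 5 in Egln3 at 55.9 CPM (next 10.4 CPM), and replicate 7 in Vegfa at 165.5 CPM (next 17.4 CPM).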

How the results depend on the processing

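For MCL-like against all non-MCL primaries, where 1 member was called, the number called was 2 with library size scaling, 7 with DESeq2, and 0 with no low-count filter, with limma-voom, in spleen tumours alone and in the fit of 3 groups; leaving out 1 mouse gave 0 to 2. The 7 DESeq2 calls, all lower, were Bnip3, Egln3, Vegfa, Pkm, Pgk1, Ldha and Higd1a. Of these, Bnip3, Egln3 and Pgk1 passed the low-count filter only through the non-MCL mice, so their calls are a description only. Against Ccnd2 non-MCL primaries (0 called) it was 2 with DESeq2, 2 without the oTP tumours and 1 in a fit of these 7 mice alone. For Ccnd2 non-MCL against p53-only primaries (0 called) it was 1 without the oTP tumours, Vegfa, higher in Ccnd2 non-MCL mice (2.92 on the log2 scale, adjusted p = 0.0464). For transplants it was 0 in the 11 alternatives, 0 among them with no replicate block. Bnip3, the 1 member called against all non-MCL mice, kept its sign there in each alternative. Fold changes kept 1 sign in all alternatives for 20 of 30 members against all non-MCL mice, 18 against Ccnd2 non-MCL mice, 14 between the non-MCL groups and 15 of 27 in transplants. Library size scaling lowered the all-gene median to -0.221, from -0.127, against all non-MCL mice, to -0.164, from -0.0446, against Ccnd2 non-MCL mice, and to -0.101, from 0.00523, in transplants, and turned Gpi1 to -0.05 against all non-MCL mice.

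Calls over all genes against all non-MCL mice, 368 up and 348 down, were 733 and 1017 with DESeq2, 325 and 194 with no low-count filter, 559 and 215 with limma-voom, 309 and 439 with library size scaling, 125 and 88 with the name prefix as covariate, 176 and 72 without oTP tumours, and 25 and 12 in spleen tumours; they were 131 and 45 to 174 and 76 without any 1 MCL-like mouse, 248 and 147 to 277 and 163 without p53-only replicate 4, 6 or 7, and 569 and 522 without Ccnd2 non-MCL replicate 2. Against Ccnd2 non-MCL mice, 8 up and 32 down, they were 295 and 540 with DESeq2, 226 and 326 without oTP tumours, 13 and 103 in spleen tumours, 4 and 18 with median-ratio size factors, 6 and 11 with limma-voom, 3 and 13 with the first library of each mouse, 4 and 15 with the name prefix as covariate, 143 and 228 in a fit of these 7 mice alone, at most 1 and 7 without any 1 MCL-like mouse, Ccnd2 non-MCL replicate 1 or 2 or p53-only replicate 6, 4 and 19 without p53-only replicate 4, and 3 and 21 without p53-only replicate 7. Between the non-MCL groups, with none at first, they were 75 and 40 with DESeq2, 39 and 2 in spleen tumours, 89 and 27 without oTP tumours, and at most 7 and 1 in the others. In transplants, with none at first, they were 6 and 26 with DESeq2, 9 and 26 with no low-count filter, 1 and 13 without MCL-like replicate 1 and its transplants, 3 and 6 without replicate 2 and its transplants, and 0 in the others. Low counts limit Bnip3, Egln3, Pgk1, Pgam1 and P4ha2, whose MCL-like totals were 16, 5, 18, 7 and 7 counts.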
